A study of Mus musculus with 14 samples.

Results

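Apolipoproteins are the protein parts of lipoprotein particles, and 10 of their genes were followed in the livers of mice on a high-fat diet that had received a transplant of brown-fat cells or an empty scaffold. The genes were taken from a fixed list, with no measured value in the rule: Apoa1, Apoa2, Apoa4, Apoa5, Apob, Apoc1, Apoc2, Apoc3, Apoe and Apom, 10 of 24983 genes that had a count in at least 1 library. The list was chosen with earlier results of these data known. Transplant recipients (n = 6, titled iBAT 2x) carried a silk scaffold seeded with brown-fat pre-adipocytes that had been taken from the stroma and differentiated. Control recipients (n = 8, titled Sham-WT) had been given the scaffold with no cells. The meaning of "2x" and "WT", and the strain, sex and age of the mice, the time from transplantation to sampling and whether each liver came from a separate animal are unstated in the labels. A p-value below therefore covers only the variation among these libraries, which may be technical in part.

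The liver makes most of the apolipoproteins in blood, and the intestine makes several of them too. ApoB is the large scaffold protein of very low density lipoprotein (VLDL) and its remnants, apoA-I and apoA-II are the main proteins of high density lipoprotein (HDL), and apoE is the ligand by which remnants are taken up by receptors on hepatocytes. The smaller C apolipoproteins move between particles and tune lipolysis: apoC-II activates lipoprotein lipase, while apoC-III and apoC-I slow the clearance of triglyceride-rich particles and apoA-V promotes it. ApoA-IV is made in intestine and liver and is known in mouse liver for its tie to triglyceride content and VLDL secretion, and apoM is the sphingosine-1-phosphate carrier of HDL.

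The members lie in a few clusters. Apoa1, Apoc3, Apoa4 and Apoa5 are neighbours on chromosome 9, Apoe, Apoc1 and Apoc2 on chromosome 7, and Apoa2, Apob and Apom are alone on chromosomes 1, 12 and 17. RefSeq (GRCm38.p6) gave a promoter window for 8 of the 10, and 4 windows are shown. The windows of Apoa1, Apoa4 and Apoa5 belong to 3 neighbours of 1 cluster that differed in how they varied. That of Apob belongs to a member that, with Apoa4, pointed the other way from most. Each is the 250 bases before the first start that the table lists, 5′ to 3′ on the gene's strand, with matches to TATAAA (the element bound by the general factor TBP) and CAAAGNNCA (a core of sites bound by the nuclear receptor HNF4) on either strand in capitals.
Apoa1, chr9:46228380-46228629, plus strand: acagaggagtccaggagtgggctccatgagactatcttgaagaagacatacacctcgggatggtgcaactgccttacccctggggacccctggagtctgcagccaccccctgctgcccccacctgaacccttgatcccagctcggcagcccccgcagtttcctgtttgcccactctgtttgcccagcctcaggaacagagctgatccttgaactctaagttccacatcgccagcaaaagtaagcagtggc
Apoa4, chr9:46240594-46240843, plus strand: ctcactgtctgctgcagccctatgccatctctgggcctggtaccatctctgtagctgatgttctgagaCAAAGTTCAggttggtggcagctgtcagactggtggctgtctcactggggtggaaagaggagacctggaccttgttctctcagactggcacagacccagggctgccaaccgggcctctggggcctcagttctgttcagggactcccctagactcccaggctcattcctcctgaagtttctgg
Apoa5, chr9:46268358-46268607, plus strand: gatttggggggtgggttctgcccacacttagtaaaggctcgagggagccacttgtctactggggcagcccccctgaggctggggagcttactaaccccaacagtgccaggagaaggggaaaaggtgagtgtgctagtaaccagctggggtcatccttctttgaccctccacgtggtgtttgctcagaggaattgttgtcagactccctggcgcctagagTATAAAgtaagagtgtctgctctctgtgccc
Apob, chr12:7977427-7977676, plus strand: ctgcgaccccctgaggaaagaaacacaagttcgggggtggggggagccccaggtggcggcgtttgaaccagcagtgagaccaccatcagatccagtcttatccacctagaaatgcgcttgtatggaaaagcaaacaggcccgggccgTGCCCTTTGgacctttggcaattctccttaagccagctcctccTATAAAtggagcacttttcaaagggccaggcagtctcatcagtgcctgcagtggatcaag
Counted from -1 at the last base before the start, the TBP element began at position -31 in Apoa5 and at -60 in Apob, and Apoa1 and Apoa4 had no match in the window. The HNF4 core began at -182 in Apoa4 on the gene's strand and at -103 in Apob on the opposite strand. Both Apob positions count from the RefSeq start. In GENCODE M21, the annotation used for the counts, the full Apob transcript starts at chr12:7977648, inside the window. Both matches lie nearer to that start, and the last bases of the window are exon there. The TBP positions of Apob and Apoa5 are therefore not compared. Over all genes in the table, 13.0% had the TBP element and 5.47% the HNF4 core in the same window, against 3 and 2 of the 8 members. A match is a description of the letters only.

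Per transcript length, Apoe was the most abundant gene of the liver in these files, and the 10 members covered a wide range. In TPM, which the authors deposited and which corrects for length, Apoe averaged 62089 ± 6329 in transplant livers and 67290 ± 11557 in empty scaffold livers (SD, n = 6 and 8). It was ranked 1 of all genes by mean TPM and held 41.9% to 50.1% of the members' TPM in transplant libraries and 47.6% to 51.2% in empty scaffold libraries. Apoa2 followed at 34156 ± 5332 against 33760 ± 8016 TPM, ranked 4. Apoc1 (14693 ± 1751 against 12896 ± 1484 TPM) and Apoa1 (13740 ± 2474 against 12040 ± 2617 TPM) came next, and their order was not fixed, since Apoc1 was above Apoa1 in 11 libraries and below it in 3. Apoc3 stood at 5788 ± 904 against 5194 ± 900 TPM, below Apoa1 in all 14 libraries.

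The lower members formed a group of 4 whose ranges overlapped. Apoa4 averaged 766 ± 579 TPM in transplant livers and 1645 ± 1265 TPM in empty scaffold livers, and was above Apoa5 in 6 libraries and below it in 8. Apoa5 stood at 1123 ± 278 against 1059 ± 283 TPM, Apob at 733 ± 136 against 968 ± 139 TPM and Apoc2 at 645 ± 116 against 785 ± 214 TPM. Each level is a sum over the transcripts of the gene, and that of Apob includes a short 3′ transcript, described below. The full Apob transcript alone had 61.1 to 232.8 TPM in transplant libraries and 82.6 to 413.4 TPM in empty scaffold libraries. These values lie below the lowest of Apoc2 (522.9 TPM), so the place of Apob in this group depends on the split between its transcripts. By gene sums, the order at the bottom was fixed. Apom was lowest in all 14 libraries, at 95.7 ± 35.0 against 102 ± 33.2 TPM. Together the members made up 13.4% ± 1.32 of all TPM in transplant libraries and 13.6% ± 2.39 in empty scaffold libraries.

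**Figure D1:**
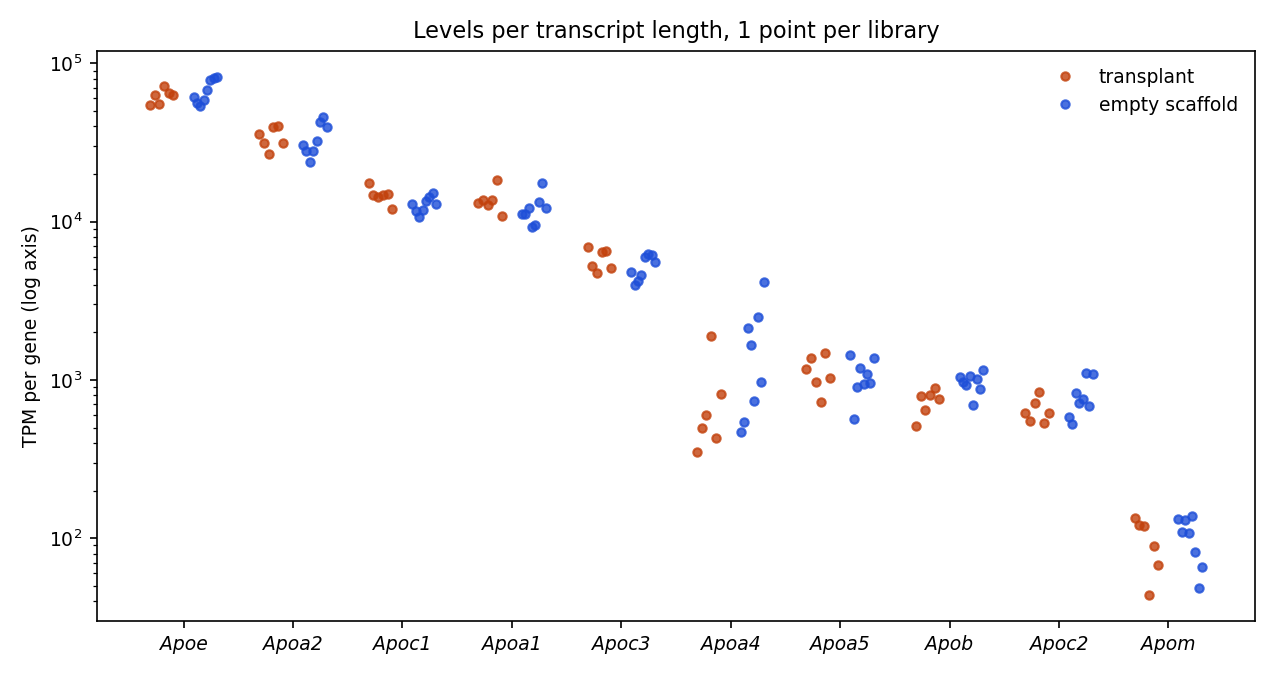
Deposited TPM summed per gene, on a log axis, with 1 point per library for the 10 members in order of mean level (transplant left of empty scaffold). Apoe stands at 54010 to 82306 TPM and Apom at 43.9 to 139 TPM, while Apoa4 covers an 11.8-fold range.

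The libraries carried features that touch every comparison here. They held 22898793 to 28910968 estimated counts in the transplant group and 19482580 to 28723928 in the empty scaffold group, and the members took 6.13% to 8.86% and 5.60% to 9.10% of them. The numbers in the sample titles run either below 100 (in 3 transplant and 4 empty scaffold libraries) or at 100 and above (in 3 and 4), whose meaning is not stated. How steeply level rose with transcript length also differed. On the log2 scale per doubling of length, relative to the mean of all libraries, the slope was -0.30 to 0.04 in transplant libraries and -0.12 to 0.27 in empty scaffold libraries. The 4 empty scaffold libraries numbered 100 or above had the highest slopes of all (0.22 to 0.27), and most apolipoprotein transcripts are short. Liver identity was plain in every library: hepatocyte genes such as Alb averaged 73340 ± 13728 CPM in transplant livers and 66349 ± 13314 CPM in empty scaffold livers.

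No member differed between transplant and empty scaffold livers at an adjusted p under 0.05 in edgeR's quasi-likelihood test, although 8 of 10 had a positive log2 fold change and 2, Apoa4 and Apob, a negative one. The test covered 13131 genes, of which 3.31% were called higher and 4.23% lower in transplant livers. The direction of Apoc2, Apoe and Apom was not stable to the scaling: all 3 were negative in TPM, and Apoc2 also with scaling by total count alone. The members' median log2 fold change was 0.38, against -0.02 over all genes tested. At an unadjusted p under 0.05, 3 members (Apoa1, Apoc1 and Apoc3) were higher and none lower, while 14.6% of all genes were higher and 15.4% lower at that limit. No member had groups that did not overlap, against 1.27% of all genes.

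Of the HDL proteins, Apoa1 came nearest to the threshold. Its CPM (counts per 1e6 of the TMM-scaled library) ran from 9962 through a median of 12703 to 17450 in transplant livers, and from 5196 through 7095 to 16584 in empty scaffold livers. All 6 transplant libraries lay above the empty scaffold median, and 2 empty scaffold libraries, replicates 6 and 7, reached into the transplant range. The log2 fold change was 0.58 ± 0.22 (SE; edgeR adjusted p = 0.0981). Apoa2 ran from 7639 through 11161 to 12672 CPM in transplant livers and from 4949 through 7234 to 13844 CPM in empty scaffold livers, at 0.39 ± 0.21 (adjusted p = 0.222). The highest and the lowest Apoa2 value both belonged to empty scaffold livers. Apom ran from 51.0 through 99.2 to 158 CPM in transplant livers and from 53.5 through 72.6 to 116 CPM in empty scaffold livers, at 0.38 ± 0.21 (adjusted p = 0.225). Leaving out 1 library moved Apom between 0.19 and 0.51. The edgeR adjusted p then ran from 0.0929 (without transplant replicate 4) to 0.561 (without transplant replicate 1).

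Among the modulators of lipolysis, Apoc1 had the smallest p of all members. It ran from 2964 through 3497 to 4664 CPM in transplant livers and from 1625 through 2336 to 3920 CPM in empty scaffold livers, a log2 fold change of 0.56 ± 0.18 (edgeR adjusted p = 0.0608). In CPM only empty scaffold replicate 7 exceeded the lowest transplant library. In TPM Apoc1 overlapped more widely, at 11976 to 17477 in transplant livers and 10651 to 15197 in empty scaffold livers. Apoc3 overlapped more than Apoc1 in CPM, with 4 of 8 empty scaffold libraries above the lowest transplant library. Apoc3 stood at 1631, 2440 and 3019 CPM (lowest, median and highest) in transplant livers against 1037, 1516 and 2543 CPM in empty scaffold livers. Its log2 fold change was 0.55 ± 0.21 (adjusted p = 0.0947). Apoa5 ran from 1130 through 1734 to 2643 CPM in transplant livers and from 538 through 1341 to 1675 CPM in empty scaffold livers, at 0.50 ± 0.24 (adjusted p = 0.169). In this fit Apoc2, the lipase activator, differed least, at 246, 364 and 515 CPM against 196, 302 and 493 CPM (0.16 ± 0.21, adjusted p = 0.630). In TPM Apoc2 was lower in transplant livers, at 645 ± 116 against 785 ± 214. Its reads are shared in part with Gm44805, a read-through gene that spans Apoc2 and Apoc4 and had 3.59% to 8.06% of the count of Apoc2, so the split between them is uncertain; 646 of its 765 exon bases lie in exons of Apoc2, while Apoc4 shares none with Apoc2. Leaving out 1 library moved Apoc2 between 0.03 (without transplant replicate 4) and 0.27 (without empty scaffold replicate 6).

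The particle scaffold and the remnant ligand did not pass either. Apob ran from 1945 through 2999 to 3389 CPM in transplant livers and from 2663 through 3563 to 4140 CPM in empty scaffold livers. All 6 transplant libraries lay below the empty scaffold median, and the log2 fold change was -0.28 ± 0.14 (edgeR adjusted p = 0.196). An offset for effective length, which kallisto gives per transcript and library, turned the value of Apob to 0.04 ± 0.19 (adjusted p = 0.920). That length was averaged per gene over its transcripts, with the TPM in each library as weights. For Apob the offset thus moved with the count share of a short 3′ transcript, described below. That share averaged 44.4% in transplant and 33.8% in empty scaffold libraries. Apoe ran from 34784 through 50546 to 58509 CPM in transplant livers and from 25243 through 37000 to 62719 CPM in empty scaffold livers, at 0.28 ± 0.21 (adjusted p = 0.386). Its lowest and highest libraries were both from the empty scaffold group.

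Apoa4 stood out by its spread rather than by group. Its CPM was 839, 781, 987, 4342, 959 and 1963 in transplant replicates 1 to 6. In empty scaffold replicates 1 to 8 it was 610, 711, 2458, 1947, 1278, 4324, 2151 and 6770. In 5 of 6 transplant livers Apoa4 was below the empty scaffold median of 2049 CPM, with replicate 4 as the exception, and the log2 fold change was -0.62 ± 0.56 (edgeR adjusted p = 0.470). It was -1.20 without that replicate (adjusted p = 0.153) and -0.23 without empty scaffold replicate 8, the highest library (adjusted p = 0.788). The within-group SD of Apoa4 was 1.10 on the log2 CPM scale, above that of 99.7% of the 2344 genes with a mean of at least 50 CPM, whose median SD was 0.23. Its neighbours on chromosome 9 spread less, with 0.44 for Apoa1, 0.43 for Apoc3 and 0.54 for Apoa5. These too were high, above 93.8%, 93.6% and 97.2% of the same genes. Apob had the smallest SD of the members (0.26). The SD pools the number ranges of the sample titles, between which Apoa4 differed by -1.40 ± 0.45 log2 (upper minus lower range, described below). Antisense Gm10680, which overlaps Apoa4, had 0.00676% to 0.0470% of its count.

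**Figure D2:**
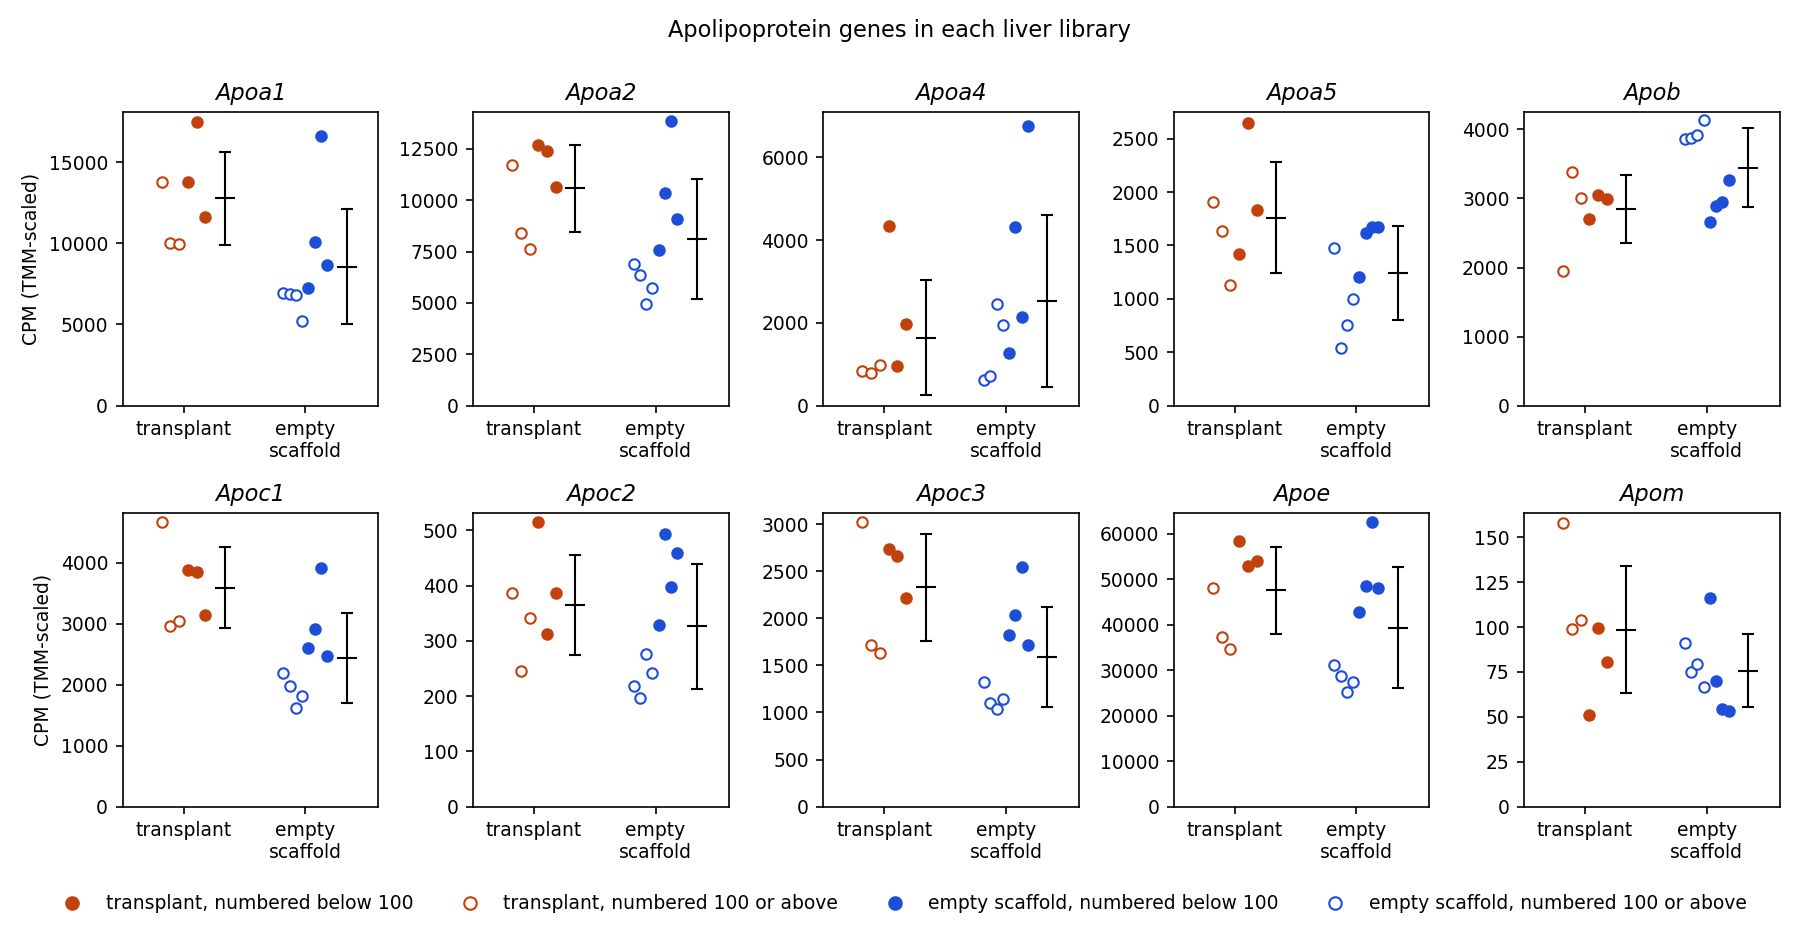
CPM of each member in every library, transplant left of empty scaffold, with filled points for libraries numbered below 100 and open points for those numbered 100 or above. Black bars to the right of each group give the mean and SD (n = 6 and 8). The open blue points (empty scaffold, 100 or above) are the lowest set for Apoc1 (1625 to 2199 CPM), Apoc3 (1037 to 1321 CPM) and Apoe (25243 to 31199 CPM) and the highest for Apob (3866 to 4140 CPM).

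The groups were next compared within each number range. In the libraries numbered 100 or above, 6 members were called higher in transplant livers, against 14.5% of the 13413 genes tested in that range: Apoa1, Apoa2, Apoc1, Apoc3, Apoe and Apom. Apoc1 stood at 2964 to 4664 CPM in 3 transplant livers and 1625 to 2199 CPM in 4 empty scaffold livers, a log2 fold change of 0.91 ± 0.18 (edgeR adjusted p = 0.0156). Apoa1 stood at 9962 to 13791 CPM against 5196 to 6953 CPM, at 0.80 ± 0.17 (adjusted p = 0.0156), and Apoc3 at 1631 to 3019 CPM against 1037 to 1321 CPM, at 0.89 ± 0.21 (adjusted p = 0.0190). Apoe (0.51 ± 0.15), Apoa2 (0.63 ± 0.18) and Apom (0.63 ± 0.18) passed with adjusted p-values of 0.0377, 0.0301 and 0.0301. Apob stood in that range at 1945 to 3389 CPM against 3866 to 4140 CPM, and did not pass (-0.51 ± 0.18, adjusted p = 0.0540).

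In the libraries numbered below 100 no member was called, and 3 of 12994 genes were (0.0231%). Apoa1 stood at 11619 to 17450 CPM in 3 transplant livers and 7237 to 16584 CPM in 4 empty scaffold livers (0.42 ± 0.28, edgeR adjusted p = 0.684). Apob was almost level at 2702 to 3047 CPM against 2663 to 3260 CPM (-0.01 ± 0.15). The difference between the ranges was tested as an interaction of group and range, and no member passed, nor did any of the 13131 genes (0%), while 17.3% had an unadjusted p under 0.05. Of the members, Apoc1 (0.62 ± 0.27, edgeR adjusted p = 0.257) and Apob (-0.50 ± 0.23, adjusted p = 0.277) were below that unadjusted limit. With length and GC trends removed the interaction of Apoc1 was 0.06 ± 0.16 (edgeR adjusted p = 0.932) and that of Apob -0.33 ± 0.19 (adjusted p = 0.567). The trends were read at 1 averaged length per gene, also for Apob with its transcript split. With the effective length offset, which for Apob follows its transcript split, the interaction of Apob was -0.24 ± 0.24. Without transplant replicate 1 the interactions were 0.36 ± 0.25 for Apoc1 and -0.30 ± 0.18 for Apob. With the range as a covariate over all 14 libraries, Apoa1 (0.61 ± 0.17), Apoa2 (0.43 ± 0.15), Apoc1 (0.60 ± 0.15) and Apoc3 (0.61 ± 0.15) were called higher, with adjusted p-values of 0.0254, 0.04999, 0.0200 and 0.0198, the value of Apoa2 lying just under the threshold. In that fit 10.6% of all genes were called higher.

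Apart from that of Apoa4, the differences were smaller once each library's trends on transcript length and GC content were removed. In that fit, no member was called in either direction, while 1.42% of all genes were called higher and 2.10% lower. The members' median then stood at 0.11 in place of 0.38. Apoc1 moved to 0.17 ± 0.08 (edgeR adjusted p = 0.218), Apoc3 to 0.20 ± 0.09 (adjusted p = 0.207) and Apoa2 to 0.02 ± 0.12 (adjusted p = 0.952), and all 3 are short genes, with main transcripts of 432 bases for Apoc1 and 518 bases for Apoa2. Apoa1 kept more of its difference, at 0.41 ± 0.15 (adjusted p = 0.122), as did Apoa5 at 0.41 ± 0.21 (adjusted p = 0.266), and Apoa4 stayed at -0.63 ± 0.56. Apoc2 turned to -0.14 ± 0.14 and Apob moved to -0.13 ± 0.10. For Apob the length trend was read at 1 averaged length, 4830 bases, which lies between those of its full and short transcripts. With the range as a covariate as well, no member passed while 6.53% of all genes did, and the smallest adjusted p among members was that of Apoa1 (0.42 ± 0.14, adjusted p = 0.0723). Within the libraries numbered 100 or above, removal of the trends left 1 member called, Apoa1 (0.47, adjusted p = 0.0416), against 5.75% of all genes called higher.

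The call of single members also turned on the tool, the scaling or 1 library. DESeq2's Wald test called Apoc1 higher (0.57, adjusted p = 0.0244) and 7.86% of all genes with it. Empty scaffold replicate 7 had the highest Apoa1, Apoa2, Apoa5, Apoc1, Apoc3 and Apoe CPM of its group. Without that library Apoa1 (adjusted p = 0.0161), Apoc1 (0.0177) and Apoc3 (0.0325) were called higher by edgeR, as were 7.42% of all genes. Apob was called lower with scaling by total count (-0.52, adjusted p = 0.0412) and by limma on log2(TPM + 1) (-0.41, adjusted p = 0.0458), where 21.1% and 16.7% of all genes were lower and the median of all genes stood at -0.25 and -0.30.

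**Figure D3:**
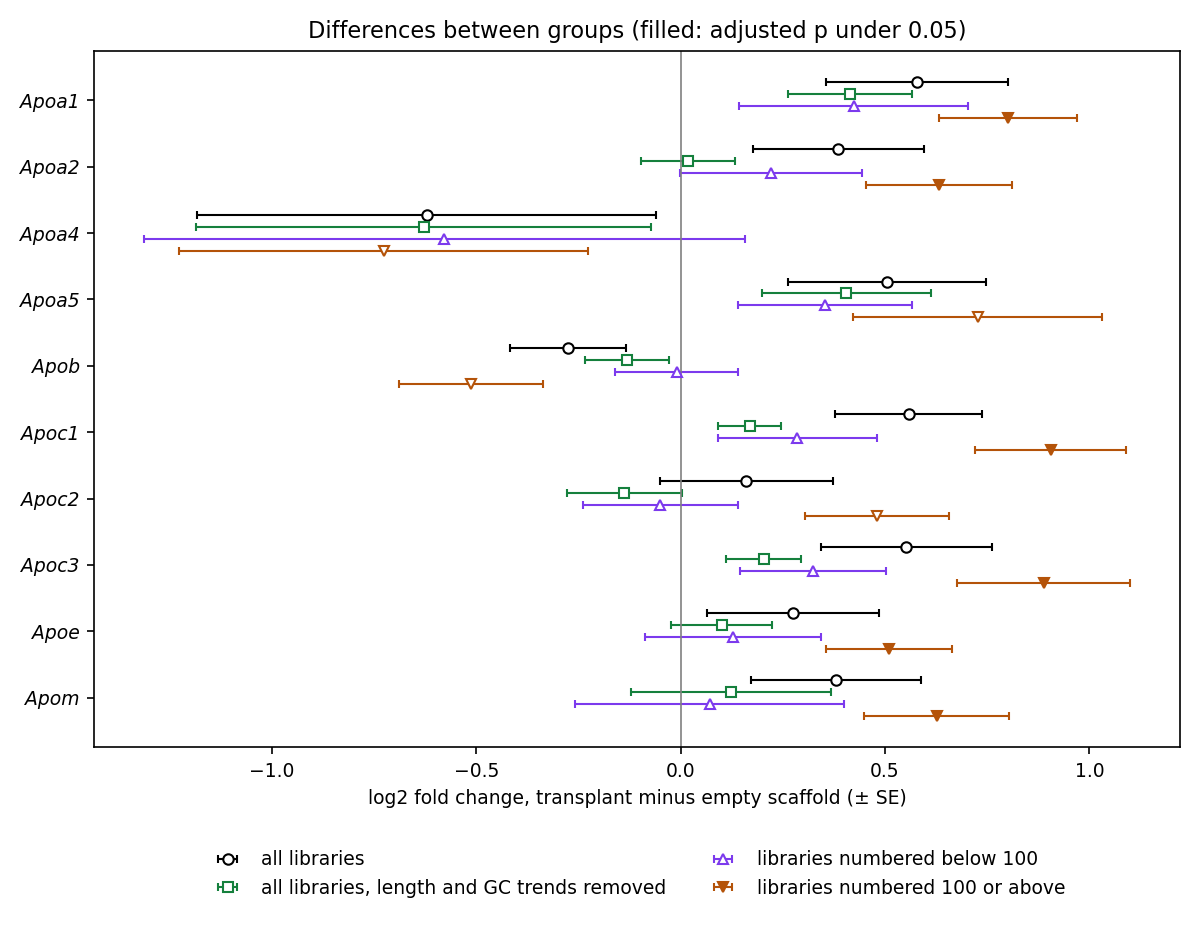
Log2 fold change of each member, transplant minus empty scaffold, with its SE, in 4 fits, where a filled symbol marks an adjusted p under 0.05. The filled symbols are the 6 called in libraries numbered 100 or above, and removal of length and GC trends gives Apoc1 a difference of 0.17 in place of 0.56 and Apoa4 one of -0.63.

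The counts of each member were also read by transcript. Most members were carried by a single transcript: a median of 99.95% of the count of Apoa1 (1035 bases), all of Apoa4 (1815 bases) and Apom (1013 bases) and a median of 97.9% for Apoc1 (432 bases). Apoa2 was split between transcripts of 518 and 492 bases, with medians of 54.6% and 42.9%, and Apoe between a coding transcript of 1104 bases (median 62.3%) and a transcript annotated as processed, of 728 bases (35.0%). The count of Apob went to the full transcript of 13934 bases and to one of 2174 bases, annotated at chr12:8012359-8016835 on the plus strand (GRCm38), all of whose bases lie in exons at the 3′ end of the full transcript. The share on the short 3′ transcript was 51.2%, 25.2%, 24.1%, 59.4%, 55.3% and 50.9% in transplant replicates 1 to 6. It was 23.8%, 21.1%, 15.1%, 18.2%, 32.0%, 52.4%, 58.0% and 49.5% in empty scaffold replicates 1 to 8.

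The 4 empty scaffold libraries numbered 100 or above thus had the lowest 3′ shares (15.1% to 23.8%), and they were also those with the highest length slopes. Transplant replicate 1, with a share of 51.2%, had the lowest length slope (-0.30), the lowest Apob (1945 CPM) and the highest Apoc1, Apoc3 and Apom of all libraries. The count on the full transcript alone was 950 to 2535 CPM in transplant livers and 1238 to 3387 CPM in empty scaffold livers. The ratio of Apob to Apoa1 CPM, which needs no scaling of libraries, was 0.141 to 0.339 in transplant livers and 0.178 to 0.797 in empty scaffold livers. In the range of 100 or above it was 0.141 to 0.339 in transplant livers against 0.556 to 0.797 in empty scaffold livers, and below 100 it was 0.175 to 0.258 in transplant livers against 0.178 to 0.378 in empty scaffold livers. The part that coverage along transcripts has in these values was not tested.

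**Figure D4:**
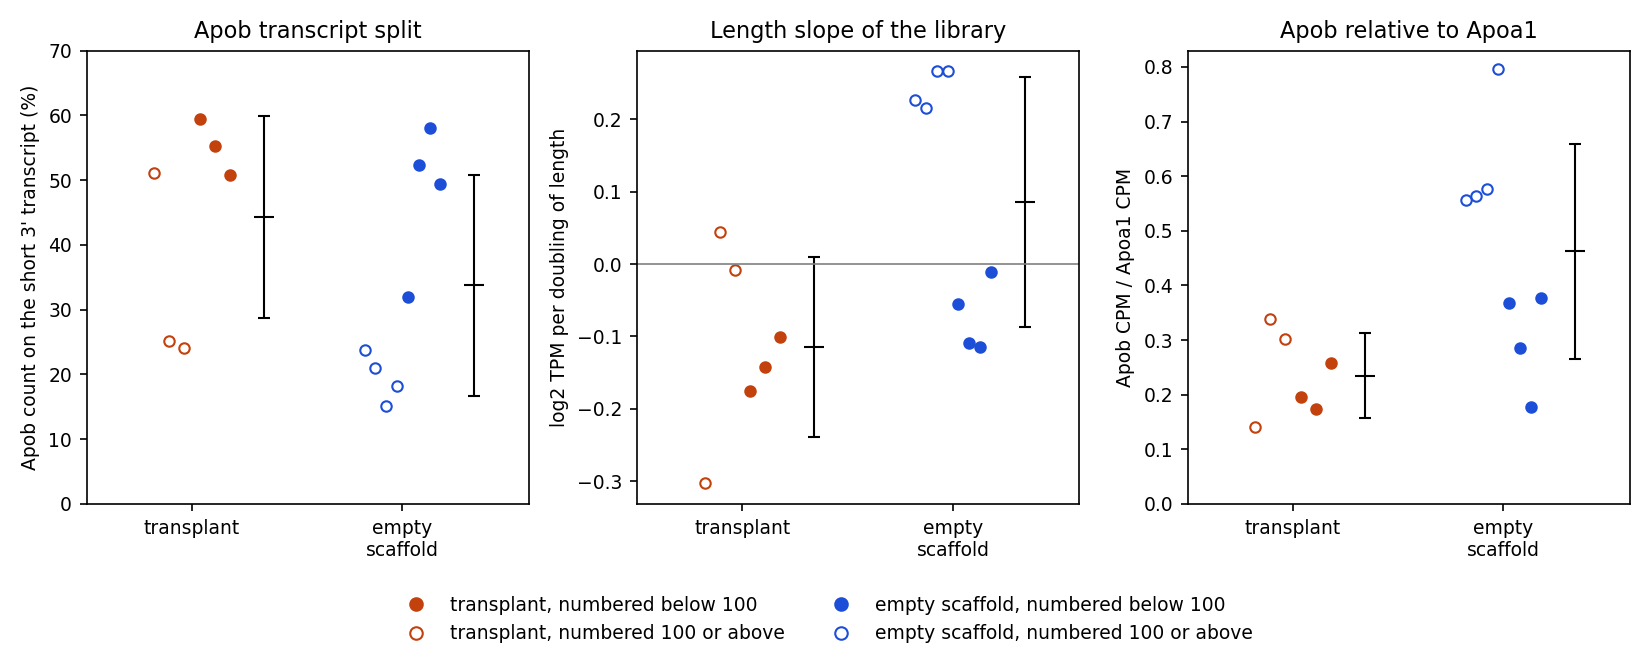
Per library, from left to right: the percent of the Apob count on the short 3′ transcript, the slope of log2 TPM per doubling of transcript length over all genes, and the ratio of Apob to Apoa1 CPM. Transplant is left of empty scaffold, filled points are numbered below 100, black bars are mean and SD (n = 6 and 8), and the 4 open blue points lie at 15.1% to 23.8%, 0.22 to 0.27 and 0.556 to 0.797.

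The number ranges were also compared with each other. In a comparison added after the data were seen, with the group as a covariate, 6 of 10 members were lower in libraries numbered 100 or above than in those below 100, against 10.9% of all genes. In the upper range Apoe stood at 34784 to 48089 CPM in transplant and 25243 to 31199 CPM in empty scaffold libraries. In the lower range it stood at 53003 to 58509 CPM in transplant and 42800 to 62719 CPM in empty scaffold libraries. Its log2 difference, upper minus lower range, was -0.68 ± 0.12 (edgeR adjusted p = 0.00348). Apoc2 (-0.62 ± 0.15), Apoa2 (-0.60 ± 0.15), Apoc3 (-0.58 ± 0.15), Apoa1 (-0.56 ± 0.17) and Apoa4 (-1.40 ± 0.45) were the others called, with adjusted p-values of 0.00808 to 0.0422. Without the length and GC trends, Apoe alone of the 10 passed, at -0.36 ± 0.09 (adjusted p = 0.0140, where 6.34% of all genes were called lower), and Apoa4 stood at -1.25 ± 0.46 (adjusted p = 0.0903). Apom pointed the other way in both fits, at 0.33 ± 0.20 and 0.58 ± 0.20 (adjusted p = 0.248 and 0.0686).

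**Figure D5:**
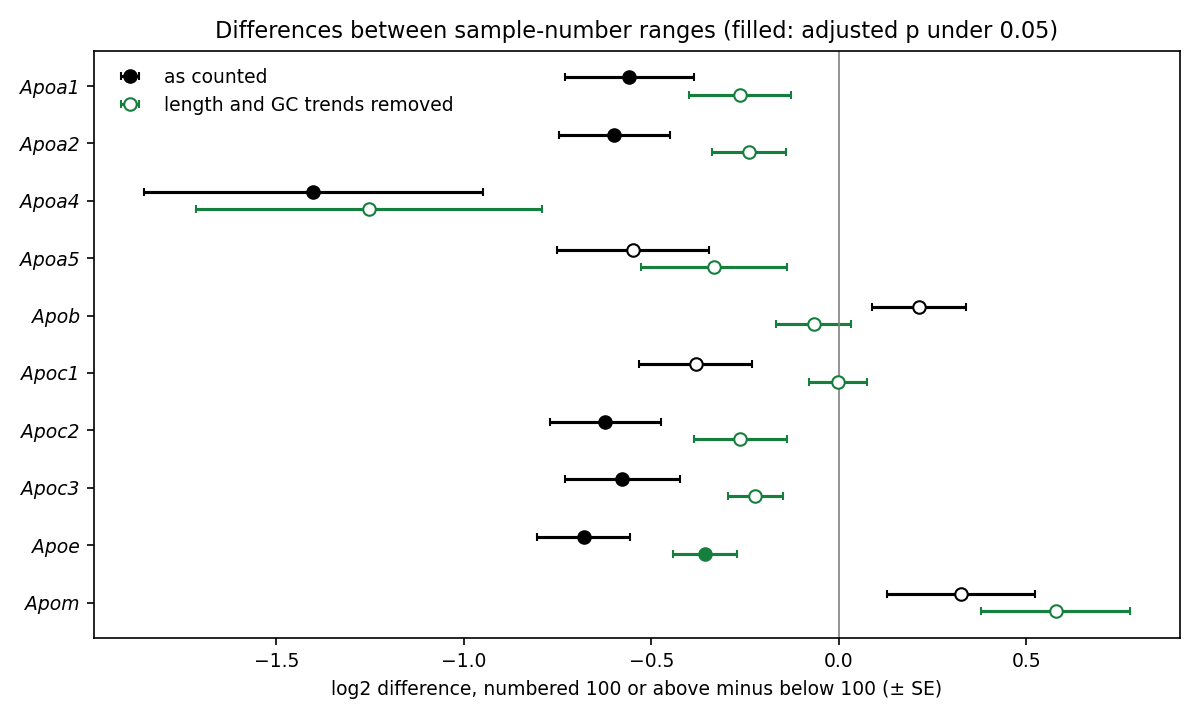
Log2 difference of each member between libraries numbered 100 or above and those below 100, with the group as a covariate, with its SE, as counted and with length and GC trends removed. Filled points have an adjusted p under 0.05, which 6 members reach as counted and Apoe alone reaches (-0.36) after removal of the trends.

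Genes that act with the apolipoproteins were read in edgeR's test against the 3.31% of all genes called higher and 4.23% called lower. Of 19 tested genes for other plasma proteins, of lipoproteins or of lipid and retinol transport, 1 was called. This was the retinol carrier Rbp4, at 5017 ± 962 CPM in transplant livers and 3237 ± 889 CPM in empty scaffold livers. Its log2 fold change was 0.63 ± 0.18 (edgeR adjusted p = 0.0413). It was still called once the length and GC trends were taken out (0.40, adjusted p = 0.0359). The list's median was 0.28, or 0.11 without the trends. Apoc4, a further small apolipoprotein beside Apoc2, stood at 1100 ± 357 against 683 ± 239 CPM (0.69 ± 0.23, adjusted p = 0.0648), and Lcat, the enzyme that esterifies cholesterol on HDL, at 477 ± 60.3 against 374 ± 64.2 CPM (0.35 ± 0.12, adjusted p = 0.0776). Pltp, the phospholipid transfer protein, stood at 48.9 ± 16.2 against 65.5 ± 23.9 CPM (-0.42 ± 0.24, adjusted p = 0.246).

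Of 18 genes of assembly and secretion of apoB particles, 1 was called, and the list's median was 0.03. Sar1b, a GTPase of the coat that carries large particles out of the endoplasmic reticulum, rose to 240.0 ± 47.4 CPM in transplant livers, against 163 ± 16.8 CPM in empty scaffold livers (0.56 ± 0.11, edgeR adjusted p = 0.0164). After removal of the trends Sar1b stood at 0.22 and was not called (adjusted p = 0.108). Mttp, which loads lipid onto apoB, had 236 ± 35.9 against 234 ± 21.2 CPM (0.01 ± 0.10, adjusted p = 0.961), and Tm6sf2, which acts in the lipidation of VLDL, had 24.6 ± 2.63 against 21.8 ± 5.53 CPM (adjusted p = 0.396). Apobec1, the deaminase that edits Apob mRNA to the short apoB48 form, had 6.78 ± 0.789 against 8.12 ± 1.45 CPM (-0.26 ± 0.13, adjusted p = 0.189), and after removal of the trends it was called lower (-0.46, adjusted p = 0.0420).

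Of 13 tested genes of receptors and uptake (median -0.19), 1 was lower, the sorting receptor gene Sorl1, at 1.16 ± 0.487 against 2.50 ± 0.784 CPM (-1.12 ± 0.26, edgeR adjusted p = 0.0240). The remnant receptor gene Lrp1 stood at 399.9 ± 77.1 against 506 ± 137 CPM (-0.34 ± 0.17, adjusted p = 0.195), and the HDL receptor gene Scarb1 at 173 ± 15.5 against 155 ± 19.6 CPM (0.15 ± 0.10, adjusted p = 0.289). None of 9 genes of lipolysis (median 0.15) was called, and the gene for hepatic lipase, Lipc, came nearest at 150.04 ± 25.3 against 110.4 ± 23.0 CPM (0.44 ± 0.14, adjusted p = 0.0621). Of 7 genes of sterol export (median -0.14) the cholesterol exporter gene Abcg1 was lower, at 3.73 ± 1.11 against 5.89 ± 1.27 CPM (-0.66 ± 0.19, adjusted p = 0.0427). Abca1, which lipidates apoA-I, stood at 74.6 ± 15.5 against 101 ± 27.0 CPM (-0.44 ± 0.17, adjusted p = 0.107). After removal of the trends neither Sorl1 (-0.82, adjusted p = 0.0785) nor Abcg1 (-0.38, adjusted p = 0.300) passed.

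Of 25 genes of transcription factors and cofactors known to act on apolipoprotein genes (median -0.08), 2 were higher and 1 lower, with 3.31% and 4.23% of all genes as the background. Onecut1, a hepatocyte factor also called HNF6, rose to 14.8 ± 8.61 CPM in transplant livers, against 5.76 ± 2.69 CPM in empty scaffold livers (1.34 ± 0.39, edgeR adjusted p = 0.0487). Foxa3, another hepatocyte factor, rose to 50.5 ± 9.34 CPM, against 35.6 ± 8.38 CPM (0.50 ± 0.15, adjusted p = 0.0497), and Nr1d1, the clock repressor REV-ERB alpha, fell to 61.2 ± 14.3 CPM, against 91.8 ± 15.6 CPM (-0.58 ± 0.14, adjusted p = 0.0299). After removal of the trends Onecut1 and Nr1d1 were still called (adjusted p = 0.0463 and 0.0471), and Foxa3 was not (0.52, adjusted p = 0.0712). Hnf4a, the receptor whose core motif was searched above, stood at 428 ± 108 against 435 ± 74.1 CPM (-0.02 ± 0.16, adjusted p = 0.927). Creb3l3, known as an activator of Apoa4 and Apoc2, stood at 340.3 ± 58.6 against 294 ± 35.6 CPM (0.21 ± 0.12, adjusted p = 0.230). Among lipid-sensing nuclear receptors, Nr1h3 had a log2 fold change of 0.27 ± 0.10 (adjusted p = 0.0932), Nr1h4 of 0.12 ± 0.10 (adjusted p = 0.449) and Ppara of -0.53 ± 0.33 (adjusted p = 0.289).

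Cells other than hepatocytes could add to some members, as macrophages make apoE and enterocytes make apoA-IV. In bulk tissue, fewer cells of a type and less RNA per cell cannot be told apart. Of 12 macrophage and Kupffer cell markers 5 were lower in transplant livers and none higher, against 4.23% of all genes called lower (6 after removal of the trends, against 2.10%), with a median log2 fold change of -0.65. Their summed level was 184 to 270 CPM in transplant livers and 223 to 576 CPM in empty scaffold livers, while Apoe had at least 25243 CPM in every library and was not called. The part of macrophages in the level of Apoe was not tested. Of 8 enterocyte markers, Sis, Cdx1 and Cdx2 had no count in any library, and Alpi, Mep1a and Vil1 had at most 1, 1 and 6. Fabp2 and Lgals4 were tested and not called. The sum of these 2 was 152 to 290 CPM in transplant livers against 104 to 245 CPM in empty scaffold livers. Nearly all of it was Fabp2 (mean 206 against 149 CPM), with Lgals4 at 6.50 against 5.83 CPM. Of stellate cell markers 2 of 7 and of endothelial markers 2 of 5 were lower (none of either after removal of the trends), and none of the 5 cholangiocyte or 2 tested adipocyte markers was called. Of hepatocyte markers 1 of 11 was called, Serpina1c, higher at 0.68 ± 0.18 (edgeR adjusted p = 0.0353), against 3.31% of all genes called higher. The list's median was 0.28. Serpina1c was not called after removal of the trends (0.52, edgeR adjusted p = 0.0849). Mup genes, which encode urinary proteins, took 3.56% to 8.64% of the counts in transplant livers and 1.83% to 4.37% in empty scaffold livers, and with those genes left out before scaling the members' median was 0.38 as before.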

How the data were processed

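RNA from 14 mouse livers (6 transplant, 8 empty scaffold) was sequenced from stranded libraries, per the labels. The submitters' processing notes name fastp 0.20, kallisto 0.46.1, DESeq2 1.38 and GRCm39, with no role or order; the strand setting and annotation release are not stated there. For each transcript the authors deposited a length, an effective length, an estimated count with no normalization and a TPM, as the file headers show. TPM keeps no depth.

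Transcripts were matched to genes through GENCODE M21, an annotation of GRCm38 (93.7% of 128803 transcripts). Estimated counts were summed per gene and rounded. After filterByExpr, 13131 genes were tested with edgeR 4.0.16 (R 4.3.3), using TMM scaling, a robust two-sided quasi-likelihood F test and Benjamini-Hochberg adjustment over all of them, and called at an adjusted p under 0.05. DESeq2 1.42.0 and limma 3.58.1 on log2(TPM + 1) were alternatives. Length and GC trends were fitted per library as splines with 4 degrees of freedom, centred over genes and removed as an offset. Each gene entered with 1 length and 1 GC content, averaged over its transcripts with the mean TPM as weights. The scripts were tested on simulated counts.

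The members and gene lists were chosen with earlier results of these data known. All members are named, as are up to 4 called genes of each list and a set of 17 whatever their result, some of which are not reported here. Alb, Serpina1c and the enterocyte genes were named after their values were seen. Replicate numbers follow the order of deposition and pair no samples.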

Additional observations from a re-analysis of the deposited data

Results flagged for a closer look

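Over the 10 members and both groups, 20 sets of CPM values were searched for a library that stood far from the rest, and 2 were found. The limit used flags about 1 in 20 sets by chance when sets are independent, and these share their 14 libraries. Apoa1 stood at 16584 CPM in empty scaffold replicate 7, while the next highest library of that group had 10105 CPM. Without that library Apoa1, Apoc1 and Apoc3 were called higher in transplant livers by edgeR's quasi-likelihood test (adjusted p = 0.0161, 0.0177 and 0.0325), as were 7.42% of all genes. Apoa4 stood at 4342 CPM in transplant replicate 4, while the next highest of its group had 1963 CPM.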

How the results depend on the processing

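The shares of genes called higher and lower (3.31% and 4.23%) moved with most choices. They were 0.891% and 21.1% with scaling by total count, 0.228% and 16.7% with limma on log2(TPM + 1), 7.86% and 7.11% with DESeq2's Wald test, 1.13% and 1.55% with no filter on low counts, 1.42% and 2.10% without length and GC trends, 1.04% and 1.36% with the effective length offset, and 10.6% and 9.08% with the range as a covariate. Libraries below 100 gave 0.0154% and 0.0077% (0.0077% and 0% without the trends), those at 100 or above 14.5% and 11.5% (5.75% higher without the trends). Leaving out 1 library gave 0.385% (without transplant replicate 1) to 7.42% (without empty scaffold replicate 7) higher and 0.657% to 7.12% lower.

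No member was called in the fit reported first. DESeq2's Wald test called 1 higher, the range as a covariate 4, libraries at 100 or above 6 (1 without the trends), and leaving out 1 library 0 to 3; scaling by total count and limma on TPM called 1 lower each. Directions reversed for Apoc2 with total count (-0.054), in TPM (-0.25), below 100 (-0.050; -0.20 without the trends), without the trends (-0.14; -0.13 with the range as covariate) and at 100 or above without the trends (-0.058). Apob reversed with the effective length offset (0.036) and below 100 without the trends (0.025), Apoe in TPM (-0.10), Apom in TPM (-0.11) and below 100 without the trends (-0.027), and Apoa2 at 100 or above without the trends (-0.044). The causes were not tested. Apoa4 and Apoa5 kept their sign and stayed uncalled in all 29 alternatives.

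Between number ranges 1643 genes were higher and 1432 lower, against 960 and 833 without the trends, where 1 member in place of 6 was lower. The interaction called 0 genes, and 0 to 7 when 1 library was left out (7 without transplant replicate 2). The comparison of ranges and the removal of trends within a range were chosen after seeing the data. No paired analysis was possible because the labels give no replicate numbers shared between groups. Depth did not limit the members, whose lowest level was 51.0 CPM.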
